A study of Mus musculus with 8 samples.

Results

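Close neighbours of Jak2 on mouse chromosome 19 were described in haematopoietic stem and progenitor cells. Jak2 is the kinase gene that carries the Jak2V617F mutation in these mice. The 10 neighbours, of 18193 genes with a singly named probe set, were Slc1a1, Cdc37l1, Ak3 and Rcl1 on one side of Jak2 and Insl6, Cd274, Pdcd1lg2, Ermp1, Uhrf2 and Gldc on the other. They were chosen by their place beside Jak2, with Slc1a1 included because it rose in mutant cells. Slc1a1's change is therefore a description, with no test. The cells were lineage-low, Sca1-positive and cKit-high (LSK) bone marrow cells sorted by flow cytometry from C57BL/6 mice. One group was heterozygous for Jak2V617F (4 arrays) and the other was wild type (4 arrays). The sources used here give no age or sex of the mice and no promoter or Cre behind the allele. Each array's title names a mouse and a replicate number, but nothing further says that replicates are separate animals, so p-values measure the spread between these samples.

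Jak2 transmits signals from the receptors of erythropoietin, thrombopoietin and other cytokines to Stat transcription factors, and its V617F form does so without ligand. Its neighbours share a stretch of chromosome but no common pathway. They include a glutamate transporter, a relative of an Hsp90 cochaperone, enzymes of nucleotide and glycine metabolism, a ribosome maturation factor, a relaxin-like hormone, both ligands of the T cell inhibitory receptor PD-1, an endoplasmic reticulum peptidase and a reader of DNA methylation. In human lymphomas JAK2 and the genes of the PD-1 ligands are often amplified together. In gene order on assembly GRCm38.p6, Slc1a1 lies 15 places before Jak2, Cdc37l1 9, Ak3 8 and Rcl1 4. Insl6 is the next gene after Jak2, Cd274 lies 5 places after it, Pdcd1lg2 7, Ermp1 10, Uhrf2 20 and Gldc 21.

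Promoter sequence from RefSeq (GRCm38.p6) was found for 9 of the 10 neighbours and for Jak2, and the 250 bases before the gene start were searched on both strands. The Stat site TTCNNNGAA, bound by the factors downstream of Jak2, was found in none of these 10 windows, against 7.02% of 32851 promoters. The interferon response element, GAAA repeated after any 2 bases, was likewise in none of them and in 2.98% of promoters. The TATA box TATAAA (12.4% of promoters) and the E box CACGTG (6.02%) were not in these windows either. The GC box GGGCGG was present in 32.7% of all promoters and in those of Slc1a1, Ak3, Rcl1, Jak2, Cd274, Uhrf2 and Gldc. A match is a run of letters, not evidence of binding, and a missing match concerns these windows only. Windows are shown for Slc1a1, the neighbour that rose, for Jak2, and for Cd274 and Pdcd1lg2, the genes of the PD-1 ligands, with GC boxes in capitals. They lie on the plus strand at chr19:28834885-28835134, chr19:29251553-29251802, chr19:29367188-29367437 and chr19:29410669-29410918.
Slc1a1: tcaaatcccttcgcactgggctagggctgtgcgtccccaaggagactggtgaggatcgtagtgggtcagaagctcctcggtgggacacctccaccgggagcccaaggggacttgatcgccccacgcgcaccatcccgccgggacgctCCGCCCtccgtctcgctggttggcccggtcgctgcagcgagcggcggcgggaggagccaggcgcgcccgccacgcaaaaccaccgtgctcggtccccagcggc
Jak2: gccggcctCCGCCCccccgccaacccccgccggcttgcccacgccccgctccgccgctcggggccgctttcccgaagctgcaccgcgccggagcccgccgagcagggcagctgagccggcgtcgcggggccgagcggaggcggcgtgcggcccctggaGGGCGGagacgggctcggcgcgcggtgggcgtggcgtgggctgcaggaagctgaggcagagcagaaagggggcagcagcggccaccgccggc
Cd274: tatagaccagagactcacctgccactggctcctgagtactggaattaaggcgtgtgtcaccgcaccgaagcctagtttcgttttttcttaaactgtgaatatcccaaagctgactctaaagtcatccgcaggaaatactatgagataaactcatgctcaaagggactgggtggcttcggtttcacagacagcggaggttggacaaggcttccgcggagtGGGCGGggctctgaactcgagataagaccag
Pdcd1lg2: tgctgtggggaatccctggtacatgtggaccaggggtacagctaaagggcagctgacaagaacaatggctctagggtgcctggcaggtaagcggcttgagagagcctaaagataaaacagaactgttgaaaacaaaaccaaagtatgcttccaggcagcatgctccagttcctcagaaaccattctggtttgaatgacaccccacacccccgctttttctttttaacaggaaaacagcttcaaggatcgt
The windows of Slc1a1 and Jak2 held 70.4% and 80.8% G or C, those of Cd274 and Pdcd1lg2 50.4% and 48.4%, and the median over all promoters was 52.4%. Pdcd1lg2 held no GC box.

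Values are log2 intensities that the authors deposited, and every change is mutant minus wild type. Median log2 intensity lay between 7.06 and 7.15 over the 8 arrays. Of the 6 measured LSK and progenitor markers, Kit, Cd34, Flt3 and Gata2 read 12.52 or more in every array. Meis1 read from 10.68 to 10.99 and Slamf1 from 8.77 to 10.24. Slamf1 had the largest change of the 6, at 0.72 (limma adjusted p = 0.225), and none of the 6 passed the test. Xist transcript, made from the inactive X chromosome of females, was present in 1 of the 4 mutant arrays (replicate 3) and in 2 of the 4 wild type arrays (replicates 1 and 2). All 12 measured markers of macrophages and dendritic cells had a change above 0, with no member called, and their list mean ranged from 9.69 to 10.24 in mutant and from 9.05 to 9.65 in wild type arrays. The 4 measured erythroid markers were also all above 0, with list means from 8.88 to 10.39 in mutant and from 7.74 to 8.70 in wild type arrays, and 4 of 5 granulocyte markers, with list means from 12.46 to 13.33 in mutant and from 11.82 to 12.76 in wild type arrays. Over all genes 62.6% lay above 0. So did 3 of 4 T cell, 1 of 3 B cell, 0 of 1 NK cell and 2 of 4 endothelium and stroma markers. Among these, mutant arrays lay below all wild type arrays for Cd4 (-0.45) and Cxcl12 (-1.01), and above them for Cd8a (0.25, near background). In the lists given before, they lay below for Cd34 (-0.12). They lay above for Adgre1 (0.62), Cd68 (0.44), H2-Ab1 (0.50) and Slc4a1 (2.32). Of all genes, 3.33% were lower and 6.82% higher without overlap. No marker of any of these lists was called, and their part in the results was not tested. A background level of 6.58 was taken from 18 genes of other tissues, as the 75th percentile of their means. The spread of single values comes from 4 arrays a group, which limits the precision.

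Jak2 transcript was measured first. Its log2 intensity was 12.39, 12.46, 12.64 and 12.25 in the 4 mutant arrays, against 12.67, 12.65, 12.65 and 12.56 in the wild type arrays. The groups overlapped in mutant replicate 3. The change was -0.20 ± 0.089 (SE; limma adjusted p = 0.294), and the other Jak2 probe set changed by -0.02. Neither probe set tells the mutant from the wild type allele here, so they do not check the labels.

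Among the 10 neighbours, 1 passed the limma test over all genes (adjusted p under 0.05), and this was Slc1a1, the gene chosen for it. Over all genes 0.165% passed, 0.104% higher and 0.0605% lower in mutant cells. The arrays of the 2 genotypes did not overlap for 3 neighbours, Slc1a1 included, against 10.1% of all genes. These were Slc1a1 and Insl6, higher in mutant arrays (6.82% of all genes), and Cdc37l1, lower (3.33%). At an unadjusted p under 0.05, Slc1a1 and Insl6 were higher, as were 11.9% of all genes, and Cdc37l1 and Ermp1 were lower, as were 5.23%. For the 9 members other than Slc1a1, 1 was higher and 1 lower without overlap. At that unadjusted p, 1 of these 9 was higher and 2 were lower. Leaving Slc1a1 aside, 4 of the other 9 had a change above 0 and 5 below, where 62.6% of all genes lay above 0, with a median change of -0.01 beside 0.05 over all genes. The median size of change, regardless of sign, was 0.17 for these 9 and 0.12 over all genes.

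**Figure D1:**
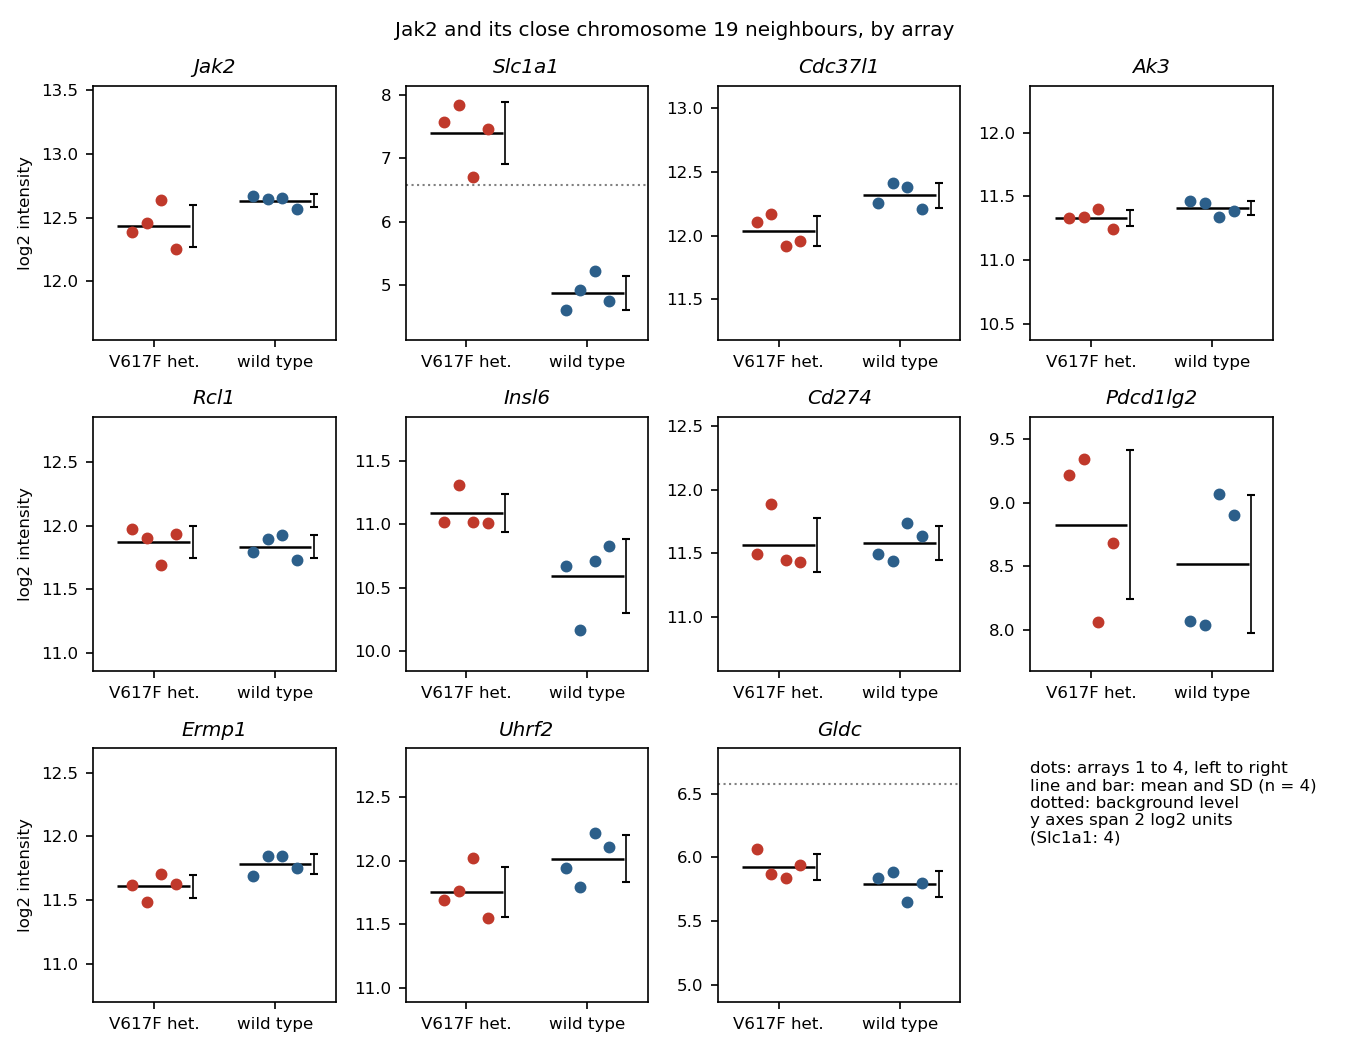
Log2 intensity of Jak2 and its 10 neighbours in each array, mutant left and wild type right, with the mean and SD of 4 arrays beside the points. Slc1a1 stands apart, with mutant arrays from 6.70 to 7.83 and wild type arrays from 4.61 to 5.22, while Pdcd1lg2 spreads widely within both genotypes. The dotted line is the background level of 6.58.

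Slc1a1 encodes an excitatory amino acid transporter that takes up glutamate, aspartate and cysteine in neurons and epithelia. Its log2 intensity was 7.58, 7.83, 6.70 and 7.46 in the mutant arrays, against 4.61, 4.93, 5.22 and 4.76 in the wild type arrays. Every mutant array lay above the background level and every wild type array below it. The lowest mutant array was replicate 3, the one with Xist transcript. The means were 7.39 ± 0.49 in mutant and 4.88 ± 0.26 in wild type cells (SD, n = 4 each), a measured change of 2.51 ± 0.23 (SE). Because the wild type arrays read at background, the fold is a lower bound. Taking the background level for them, Slc1a1 was at least 1.76-fold higher in mutant cells, a log2 difference of 0.82. In bulk RNA, more cells with the transcript and more transcript per cell cannot be told apart.

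The other Slc1a1 probe sets were dimmer and were also higher in mutant arrays. One read 6.79, 6.62, 5.50 and 6.02 in mutant arrays, against 4.35, 4.66, 4.33 and 4.28 in wild type arrays, a change of 1.82. The last changed by 0.42, with 5.24 ± 0.22 in mutant and 4.82 ± 0.09 in wild type cells (SD, n = 4 each). Both had group means under the background level, so the bound taken from that level shows no rise for them. For both the mutant arrays lay above all wild type arrays. All 3 probe sets had replicate 3 as the lowest of the mutant arrays. Over arrays without Xist transcript, 3 mutant and 2 wild type, the measured change of Slc1a1 was 2.63.

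The genes around Slc1a1 were examined next. On the far side from Jak2, the nearest gene with a probe set was Glis3, a transcription factor gene, which changed by -0.06 ± 0.32 (SE). On the near side, 4430402I18Rik read near background and changed by 0.23 ± 0.23, and Plpp6, a lipid phosphatase gene 12 places before Jak2, changed by 0.22 ± 0.0975 (SE; limma adjusted p = 0.297). A further Plpp6 probe set gave another result. It read 10.05, 10.20, 9.96 and 10.21 in mutant arrays, against 9.17, 8.97, 9.13 and 9.35 in wild type arrays. That is a change of 0.95 ± 0.10 (SE; limma adjusted p = 0.0102 over all probe sets). The last Plpp6 probe set, near background in both genotypes, changed by 0.01. The probe sets of Plpp6 disagree in size, so its change is uncertain. Plpp6 was singled out after its values were seen.

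Cdc37l1 encodes a relative of Cdc37, which hands kinases to the chaperone Hsp90. Its brightest probe set read 12.10, 12.17, 11.92 and 11.95 in mutant arrays, against 12.26, 12.41, 12.39 and 12.21 in wild type arrays. The groups did not overlap, but the change of -0.28 ± 0.085 (SE) did not pass (limma adjusted p = 0.187). Its 5 other probe sets changed by -0.0091, 0.06, 0.10, -0.0071 and -0.0024, and none of these had groups apart. The lower reading was thus that of 1 of 6 probe sets.

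Ak3 encodes the adenylate kinase of the mitochondrial matrix, which uses GTP. Its brightest probe set read 11.33, 11.34, 11.40 and 11.25 in mutant and 11.46, 11.44, 11.34 and 11.38 in wild type arrays. The change was -0.08 ± 0.066 (SE; limma adjusted p = 0.542), and the other probe sets changed by 0.14 and 0.11. The signs differed between probe sets. Rcl1 encodes a factor that matures the RNA of the small ribosomal subunit in yeast and vertebrates. It read 11.97, 11.90, 11.69 and 11.93 in mutant and 11.80, 11.89, 11.93 and 11.73 in wild type arrays, with a change of 0.04 ± 0.085 (SE; limma adjusted p = 0.827). Its mutant replicate 3 was lowest of all 8 arrays, as for Cdc37l1.

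Insl6, the gene that follows Jak2, encodes a relaxin-like peptide known from male germ cells. Its log2 intensity was 11.02, 11.31, 11.01 and 11.01 in the mutant arrays, against 10.67, 10.17, 10.71 and 10.83 in the wild type arrays. All mutant arrays lay above all wild type arrays. The means were 11.09 ± 0.15 in mutant and 10.60 ± 0.29 in wild type cells (SD, n = 4 each), a change of 0.49 ± 0.14 (SE) or 1.41-fold that did not pass over all genes (limma adjusted p = 0.180). Insl6 had 1 probe set, so no other could be compared. The other 3 germ cell markers also had changes above 0, of 0.42 for Tnp2, 0.19 for Acrv1 and 0.18 for Prm1, none called. Over all genes 62.6% lay above 0. So did 12 of the 18 genes of other tissues, Prm1 and Tnp2 among them, with a median change of 0.17. Tnp2 and Acrv1 were near background in both genotypes, and the part of germ cell transcripts in the values of Insl6 was not tested. The probe set of Rln1, the relaxin gene next to Insl6, read at 3.57 in mutant and 3.56 in wild type cells, near background in both.

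Cd274 encodes PD-L1, the ligand that restrains T cells through PD-1 and is induced by interferon through Jak and Stat proteins. It read 11.50, 11.88, 11.45 and 11.43 in mutant and 11.50, 11.44, 11.73 and 11.64 in wild type arrays. The groups overlapped, and the change was -0.01 ± 0.12 (SE; limma adjusted p = 0.966). Its sign turned under 7 of 18 alternatives, so it has no direction. Plgrkt, the plasminogen receptor gene beside Cd274, changed by 0.12 ± 0.071 (SE; limma adjusted p = 0.410).

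Pdcd1lg2 encodes PD-L2, the further PD-1 ligand, found on dendritic cells and macrophages. Its log2 intensity was 9.22, 9.34, 8.06 and 8.68 in mutant arrays, against 8.07, 8.03, 9.07 and 8.90 in wild type arrays. It had the widest spread of the 10 genes within mutant arrays (SD 0.58) and within wild type arrays (SD 0.54). The change of 0.31 ± 0.33 (SE) was smaller than that spread (limma adjusted p = 0.635). It depended on single arrays, at 0.178, 0.136 and 0.562 without mutant replicates 1, 2 and 3, and at 0.158, 0.147 and 0.492 without wild type replicates 1, 2 and 3. The 3 arrays with Xist transcript read from 8.03 to 8.07 and the 5 without it from 8.68 to 9.34. With Xist status as a covariate the change was 0.07, and among arrays without Xist it was 0.09. This split was noticed after the values were seen and was not tested. The list means of macrophage and dendritic cell markers, given above, did not overlap between genotypes although no marker was called, and their part in the values of Pdcd1lg2 was not tested.

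Ermp1 encodes a metallopeptidase of the endoplasmic reticulum. It read 11.62, 11.49, 11.70 and 11.62 in mutant and 11.69, 11.85, 11.84 and 11.75 in wild type arrays. Mutant replicate 3 reached above the lowest wild type array, and the change of -0.17 ± 0.074 (SE) did not pass (limma adjusted p = 0.280). A dim probe set, near background in both genotypes, changed by -0.46 with groups apart, and a brighter one by 0.08. Uhrf2 encodes a ubiquitin ligase that binds methylated DNA. It read 11.69, 11.76, 12.02 and 11.55 in mutant and 11.94, 11.80, 12.22 and 12.11 in wild type arrays. The change was -0.26 ± 0.12 (SE; limma adjusted p = 0.316), and the other probe set changed by -0.15. Gldc, the glycine-cleaving decarboxylase of mitochondria, read from 5.83 to 6.06 in mutant and from 5.65 to 5.88 in wild type arrays, near background in both, so its change of 0.13 ± 0.081 (SE; limma adjusted p = 0.411) bears on no measured transcript.

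**Figure D2:**
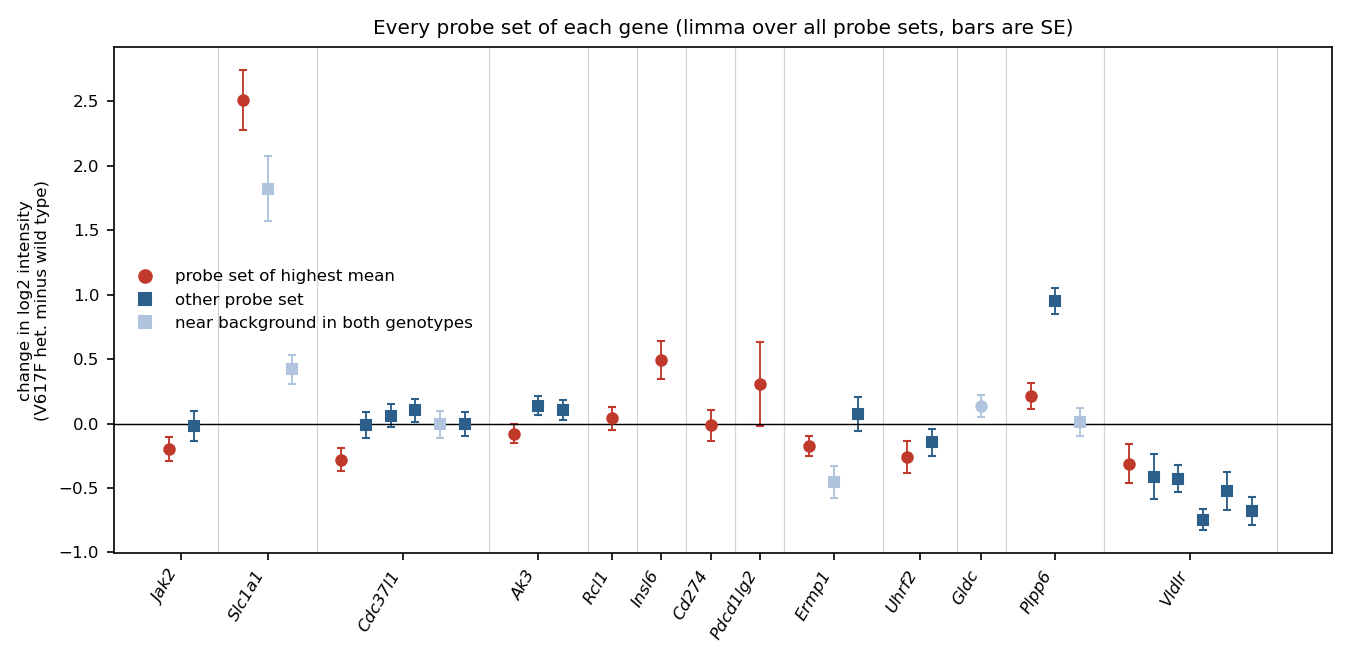
Change of every probe set (mutant minus wild type, bars are SE) for Jak2, the 10 neighbours, Plpp6 and Vldlr. The 3 probe sets of Slc1a1 are all above 0 and the 6 of Vldlr all below 0, and of the 6 for Cdc37l1 the brightest is at -0.28. Light symbols are near background in both genotypes.

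The wider neighbourhood was read from the same fit. Within 50 places of Jak2 in gene order, 43 genes had a probe set. Of these 1 was called, Slc1a1, which was chosen for its rise. A change above 0 was seen for 26 (60.5%, beside 62.6% of all genes), and the median change was 0.05, as over all genes. Within 10 places 0 of 13 were called (limma), with 4 at an unadjusted p under 0.05, and this share over all genes was 17.2%. Of the nearest genes not yet given, the noncoding Gm9895 changed by -0.03 and 1700018L02Rik by 0.03. Besides Slc1a1, Insl6 and Cdc37l1, the genes with the smallest p were Prkg1, Smarca2 and A930007I19Rik.

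Prkg1, the cGMP-dependent protein kinase gene 29 places after Jak2, read 10.90, 10.94, 10.61 and 10.56 in mutant arrays, against 11.31, 11.37, 11.29 and 11.22 in wild type arrays. All mutant arrays lay below all wild type arrays, with a change of -0.55 ± 0.10 (SE; limma adjusted p = 0.0756). Its other probe set changed by -0.94, also with groups apart. Prkg1 was called when limma's prior was trended and robust (adjusted p = 0.042).

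Smarca2, the chromatin remodelling ATPase gene 42 places before Jak2, read 11.87 ± 0.08 in mutant and 12.23 ± 0.12 in wild type cells (SD, n = 4 each). The change of -0.36 ± 0.081 (SE) did not pass (limma adjusted p = 0.110), and its other probe set changed by -0.42. Both had groups apart. A930007I19Rik changed by 0.43 but was near background in both genotypes (5.52 in mutant and 5.09 in wild type cells).

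Vldlr, the very low density lipoprotein receptor gene 35 places before Jak2, was singled out after its values were seen. Its brightest probe set changed by -0.31 ± 0.15 (SE; limma adjusted p = 0.320), and the 5 others by -0.41, -0.43, -0.75, -0.53 and -0.68. The clearest of them read 9.49, 9.32, 9.55 and 9.43 in mutant arrays, against 10.32, 10.18, 10.12 and 10.13 in wild type arrays. It changed by -0.75 ± 0.0834 (SE; limma adjusted p = 0.0113 over all probe sets). For 4 of the 6 probe sets the mutant arrays lay below all wild type arrays. In the fit over probe sets, 4 of 83 in the neighbourhood were called, 2 of them of Slc1a1, which was chosen for its rise. Without Slc1a1 the count was 2 of 80, 1 each of Plpp6 and Vldlr, beside 0.244% of all 45037.

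**Figure D3:**
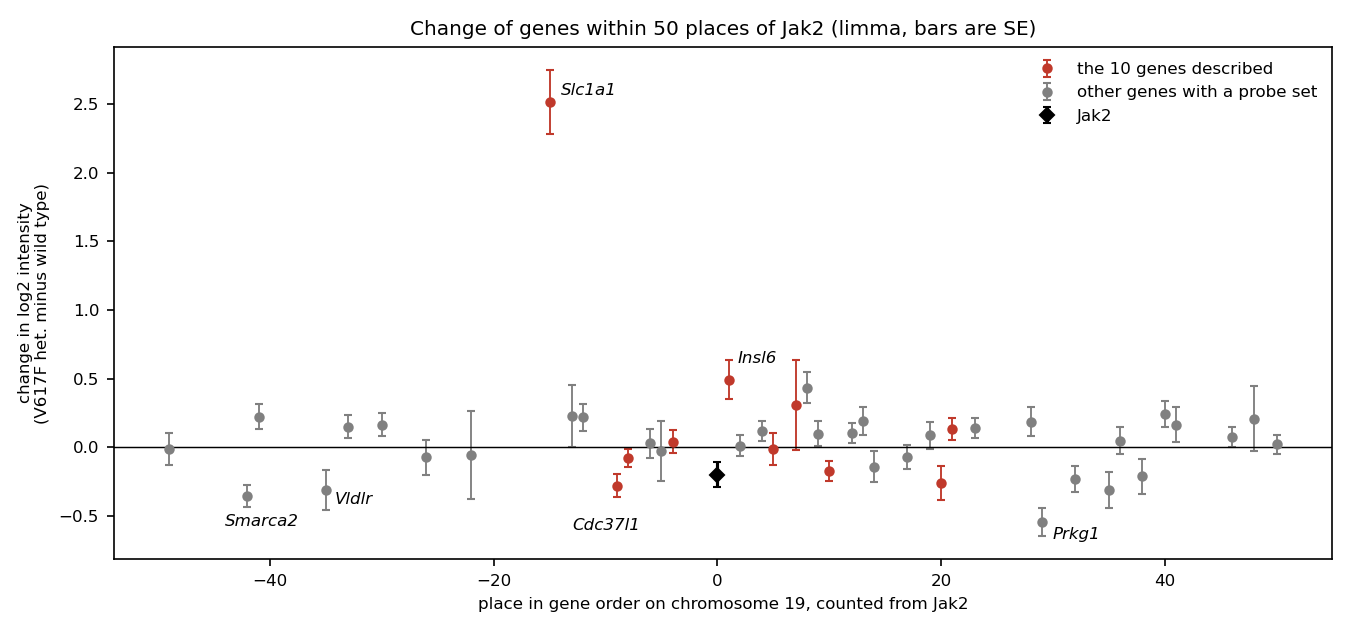
Change in log2 intensity (mutant minus wild type, bars are SE) of the 43 genes with a probe set within 50 places of Jak2 on chromosome 19, by place in gene order, with Jak2 at 0. The point of Slc1a1, chosen for its rise, is a measured difference from wild type arrays at background, with a lower bound of 0.82. The other 42 lie between -0.55 and 0.49.

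Over chromosome 19 as a whole 5 of 611 genes were called (0.818%), and over the 18 other autosomes the share ran from 0 to 0.648%. Without Slc1a1 it was 4 of 610 (0.656%) on chromosome 19. Besides Slc1a1 these were the adaptor gene Pik3ap1 (1.86 ± 0.092, SE), Oosp1 (0.97 ± 0.12), the amine oxidase gene Rnls (0.80 ± 0.11) and the growth factor binding gene Fgfbp3 (-0.60 ± 0.075). Rnls, the nearest of them, lies 59 places after Jak2, Fgfbp3 130 and Pik3ap1 230, and Oosp1 lies 335 places before it. The medians of change were 0.05 for chromosome 19 and 0.05 for all genes. No enrichment was tested.

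Genes whose pattern was most like that of Slc1a1 over the 8 arrays were Slc24a3 (Pearson r = 0.968), Pik3ap1 (0.964), C230035I16Rik (0.961), Hmga2 (0.959) and D730005E14Rik (0.958). All 5 were higher in mutant cells, by 1.17, 1.86, 0.66, 0.69 and 0.69. These r values mostly carry the difference between genotypes, which the choice of Slc1a1 fixed. For deviations from the genotype means the leading genes were Bag2 (0.957), Ptbp2 (0.955), Zfp275 (0.954), Pcgf6 (0.951) and Acsl3 (0.944). On that measure Rcl1 had 0.849, Cdc37l1 0.801, Pdcd1lg2 0.799, Cd274 0.621, Insl6 0.188 and Uhrf2 -0.31. Ak3, Ermp1 and Gldc were not eligible. The wild type arrays of Slc1a1 read at background. Mutant replicate 3 was the lowest mutant array for Slc1a1, Rcl1, Cdc37l1 and Pdcd1lg2, so these r values lean on that array. The points share normalisation across 8 arrays, and the r values are descriptions.

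Functional relatives of the neighbours were counted in 11 lists, whose sign counts stand beside the 62.6% of all genes with a change above 0. Slc1a1, chosen for its rise, was the 1 gene called over all lists. Among 7 Slc1 transporters, Slc1a1 included, 6 lay above 0 (median change 0.18), but 4 were near background in both genotypes. The choice of Slc1a1 enters this count and median. The neutral amino acid transporter gene Slc1a4 read 10.47 ± 0.30 in mutant and 9.83 ± 0.11 in wild type cells (SD, n = 4 each). All its mutant arrays lay above all wild type arrays, and its change of 0.64 ± 0.14 (SE) did not pass (limma adjusted p = 0.105). Slc1a7 and Slc1a3 changed by 0.19 and 0.18 near background. Slc1a5, the glutamine carrier, changed by -0.14.

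Glutamate, cystine and glutathione genes had 9 of 12 above 0 (median change 0.05). The glutathione synthetase gene Gss read 9.73 ± 0.14 in mutant and 9.24 ± 0.15 in wild type cells (SD, n = 4 each), with groups apart (change 0.49, limma adjusted p = 0.0956). The next were Slc3a1 at -0.19 and Got1 at 0.22. The 12 glycine and one-carbon genes measured had 10 above 0 and a median of 0.13, with Psat1 (0.14) and Shmt1 (0.18) smallest in p beside Gldc, and with 0 called (limma) and 0 at an unadjusted p under 0.05.

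In the PD-1 ligand system 9 of 16 genes lay above 0 (median change 0.05). Rgmb, a coreceptor of bone morphogenetic proteins that binds PD-L2, had the smallest p, at 6.08 ± 0.35 in mutant and 6.87 ± 0.30 in wild type cells (SD, n = 4 each; limma adjusted p = 0.131). Its mutant mean is under the background level. Cmtm4, which stabilises PD-L1, changed by -0.43 and the costimulator gene Icos by 0.50, neither called. The interferon and Stat list upstream of Cd274 had 5 of 9 genes above 0, a median of 0.01, 0 called and 0 at an unadjusted p under 0.05 (limma), with Jak1 at -0.11 and Ifngr1 at 0.12.

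The list for Cdc37l1, of Hsp90 cochaperones and of chaperones such as Hsp90aa1 and Hspa8, had 11 of 16 genes below 0 (median change -0.14). Mutant arrays lay below all wild type arrays for 5 of the 16, beside 3.33% of all genes. These were Cdc37l1, Hsp90aa1 (-0.19), Ahsa2 (-0.45), Chordc1 (-0.23) and Hspa8 (-0.12), and none was called (limma adjusted p from 0.187 to 0.402). Hspa8 was named after its values were seen. This count was not planned and was made for this list alone. Groups were also apart for members of other lists, for example lower for Utp6, Ak4 and Rgmb. They were higher for Tfrc, Tfr2, Utp14a, Utp3, Psat1 and Dnmt3l, among others. Processome genes, the partners of Rcl1, had 19 of 24 above 0 and a median of 0.10, with Utp14a at 0.29, Utp6 at -0.29 and Utp3 at 0.17. Adenylate kinases had 4 of 6 below 0, with Ak4 at -0.43, Ak7 at -0.40 and Ak5 at 0.16 near background. DNA methylation genes had 8 of 12 below 0 and a median of -0.02, with Dnmt3l at 0.39 near background and Dnmt3a at 0.14. All 8 measured relaxin and insulin-like family genes had a change above 0 (median 0.18), 5 of them near background. Rxfp2, near background, changed by 0.42. Ins2, one of the genes that set the background level, changed by 0.39. Peptidase relatives of Ermp1 had 7 of 10 above 0 and a median of 0.13, and the transferrin receptor genes had the smallest p, Tfrc (0.75, limma adjusted p = 0.0652) and Tfr2 (0.21). Not every member of that list is a peptidase, and Nrros is 1 example.

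**Figure D4:**
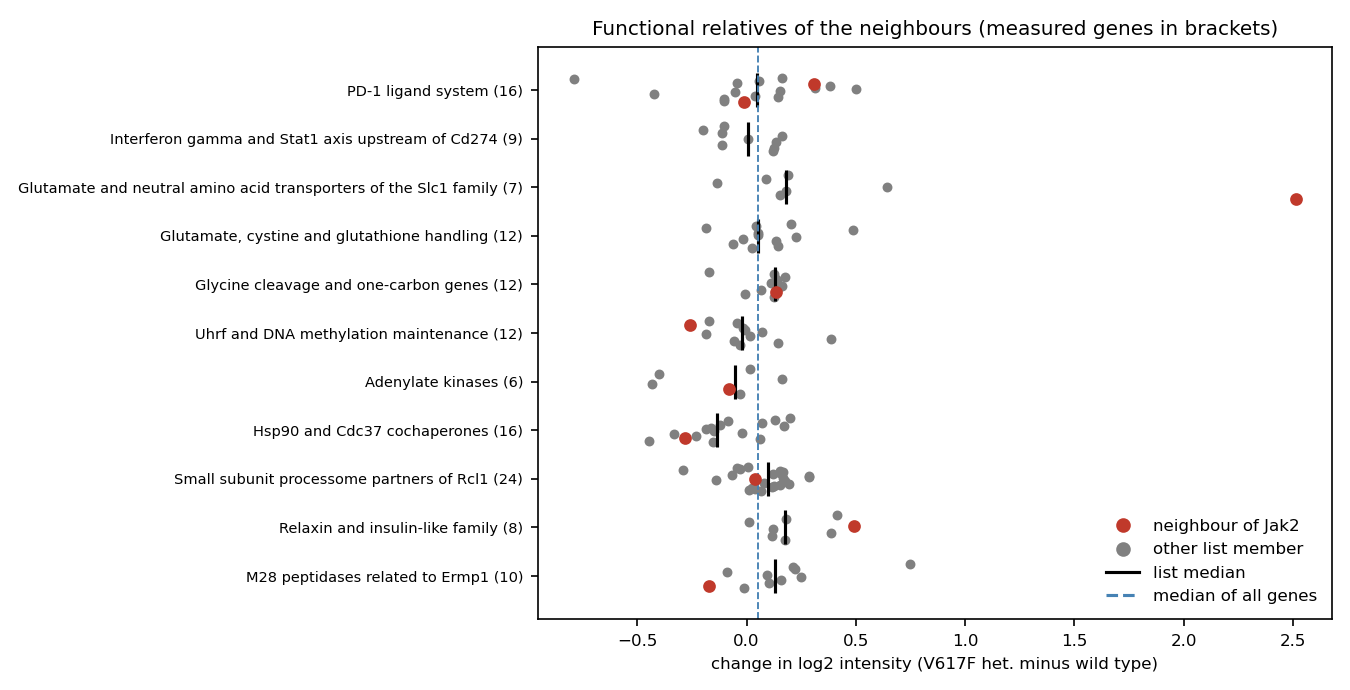
Change in log2 intensity (mutant minus wild type) of each measured member of 11 functional lists, with list medians as bars and the median of all genes, 0.05, as a dashed line. The Slc1a1 point is a measured difference from wild type arrays at background, with a lower bound of 0.82, and Slc1a4 is at 0.64.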

How the data were processed

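Per the labels' protocols, RNA from sorted LSK cells (RNeasy Micro) was amplified by NuGEN Ovation and run on Affymetrix mouse expression arrays. The authors deposited log2 intensities. The submitters' processing notes name RMA, affy and R 2.11.0, and the scale follows from the range of the values. The sources used here give no chip definition, filter, scan date or build. RMA equalises arrays, so a shift of most transcripts would not be seen.

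Of 45101 probe sets, 64 controls were dropped. Names came from the platform annotation, with 34741 of 34945 singly named probe sets matched to RefSeq GRCm38.p6. Several genes were named for 932 and none for 9160. Each of 18193 genes was read at its probe set of highest mean over all 8 arrays. Gene order came from the RefSeq table, counting all annotated genes.

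Differences were tested with limma 3.58.1 in R 4.3.3 as a two-sided comparison without covariates, and p-values were adjusted across the 18193 genes (Benjamini-Hochberg). Tested on simulated data for this comparison over 18193 genes, limma recovered 50.7% of genes changed by 0.5 and 88.1% of those changed by 1. The simulation held 200 changed genes with independent noise. In the data 30 genes were called, so the adjustment was stricter there and recovery may be lower. The members, lists and tests were chosen with earlier results of these data known. Named genes were Jak2, the neighbours, the 6 smallest p within 50 places, the nearest 5 genes on each side, called genes of chromosome 19, up to 3 further members of each list and the 5 most like Slc1a1. Likeness was computed over 7976 genes above background with an SD of deviations of at least 0.1.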

Additional observations from a re-analysis of the deposited data

Results flagged for a closer look

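Insl6 read 11.31 in mutant replicate 2, far from the 3 other mutant arrays, which read from 11.01 to 11.02. Cd274 read 11.88 in the same array, mutant replicate 2, away from the other mutant arrays at 11.43 to 11.50. In 22 groups of 4 arrays looked at, 2 held such an array, and chance gives about 1 in 20 groups. Neither gene passed the test between genotypes, and without this array the change of Insl6 remained above 0 and that of Cd274 below 0.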

How the results depend on the processing

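The 1 called neighbour was Slc1a1, whose calls restate its choice and support nothing. The count was 0 with dim genes left out, where Slc1a1 is not tested because its mean is under 7.11, and 0 with the replicate block. The labels do not say whether the numbers pair the samples. Correlations of same-numbered deviations were -0.02, -0.22, -0.06 and 0.10. Replicate 4 matched its own number best, and replicates 1, 2 and 3 did not. With so few arrays these values cannot settle whether the samples are paired. With the block 8 genes were called in all. Within 50 places of Jak2 the number of called genes was 0 with dim genes left out or the replicate block, 2 with a trended robust prior or an adjusted p of 0.1, and 3 counting any probe set, an alternative added after seeing the data. It was 0 within 10 places, 2 within 100, and 1 without any single array. Over all genes, 30 in the reported fit, it was 47 with median centring, 49 with the mean of probe sets, 75 under that prior, 60 when sex read from Xist was a covariate, 110 over all probe sets, 199 at 0.1 and from 13 to 40 without single arrays (13 and 16 without wild type replicates 2 and 3, and 19, 16 and 14 without mutant replicates 1, 2 and 4). Signs turned for Ak3, at 0.0548 with the mean of probe sets, and for Cd274, at 0.0316 with median centring, 0.0027 with array weights and from -0.119 to 0.0397 without single arrays. The cause was not tested. No other neighbour changed sign or call.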

Other observations

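Ak3 also split by Xist transcript, though narrowly. The 3 arrays with Xist read from 11.40 to 11.46 and the 5 without it from 11.25 to 11.38. This was noticed after the values were seen and was not tested. Pum3, 30 places before Jak2, encodes an RNA-binding protein, and its probe sets differed in sign, with changes of 0.27 and 0.17 for a pair of them and -0.24 for the other.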
